A study of Homo sapiens with 24 samples.

Results

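The transcriptome of A549 cells transfected with an SF3B2 plasmid was compared with that of A549 cells transfected with an eGFP plasmid. The members are the 3 SF3B2 and the 3 eGFP libraries of A549 among the 24 libraries of the series, chosen by line and plasmid. A549 is a human lung adenocarcinoma line, and eGFP, a fluorescent protein, served as the control insert of a protein-coding plasmid. Both groups were collected 48 h after transfection with Lipofectamine 3000, and the labels give no other treatment. The series also holds A549 cells given U6-driven scramble or snaR-A plasmids, and HEK293T cells, a human embryonic kidney line, given the same 4 plasmids. The scramble libraries of A549 are given here as a second control, and the SF3B2 and eGFP libraries of HEK293T only to test whether an effect differed between the lines. Transfection is transient, so each library averages cells that took up the plasmid and cells that did not. The series calls the replicates biological without saying what separated them, so the p-values measure the spread between these libraries.

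SF3B2 is a subunit of SF3b, the part of the U2 snRNP that holds the branch site of an intron during assembly of the spliceosome. The heat shock response is a separate program, in which heat shock factors bind repeated nGAAn units in promoters and raise the transcription of chaperone genes. Its HSP70 family folds client proteins with the help of J-domain co-chaperones, which deliver clients, and of nucleotide exchange factors of the BAG family, which release them. HSPA8 is the HSP70 member that cells express at all times, HSPA1A is induced by stress, and HSPA6 is known as a strictly inducible member in human cells. HSP90, the small heat shock proteins and the chaperonins act on other steps of folding.

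The 6 libraries held between 214482286 and 245616131 estimated counts. All 12 markers of A549, such as ALDH1A1 and AKR1B10, were higher in every A549 library of the comparison than in every HEK293T library. Marker sums are given as CPM, counts scaled to the library total, without TMM normalisation. Other levels printed in CPM are TMM-normalised. The A549 markers summed to 20050 to 20790 CPM in the SF3B2 libraries and to 19150 to 21820 CPM in the eGFP libraries. The HEK293T markers summed to 92.2 to 95.0 CPM and to 90.5 to 95.8 CPM in the same groups, against at least 940 CPM in HEK293T. The mitochondrially encoded genes held 8.86 to 10.9% of the counts with SF3B2 and 9.25 to 12.3% with eGFP. Among the 6 libraries, eGFP replicate 3 stood apart most, differing from the other eGFP libraries by 123 and 146 times the Poisson variance, while all other pairs within a group differed by 18.7 to 44 times. One scramble library went against its label: replicate 3 had 0.768% of its counts in SF3B2, while the other scramble libraries had 0.0298 and 0.0280%. Results against scramble are therefore given with and without it. One HEK293T eGFP library, replicate 3, had A549 markers at 1000 CPM in sum, against 5.37 to 27.4 CPM in the other HEK293T libraries used.

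SF3B2 itself (ENSG00000087365), on the plus strand of chromosome 11 at chr11:66050729-66069308 of GRCh38, was at 41311, 39337 and 38995 CPM in the SF3B2 libraries and at 255, 257 and 306 CPM in the eGFP libraries. In the scramble libraries it was at 315, 286 and 7394 CPM. The groups compared did not overlap, with a log2 fold change of 7.19 and a standard error of 0.11 (adjusted p = 7.05e-07). This and every other adjusted p comes from the quasi-likelihood F-test of edgeR, adjusted by the Benjamini-Hochberg method. The transcript took 3.86 to 4.13% of all counts with SF3B2. Plasmid-borne coding sequence cannot be told apart from the gene's own transcripts in these values, and in bulk RNA a small change in every cell cannot be told apart from a larger change in fewer cells.

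Of 21581 genes tested, 739 were higher with SF3B2 at an adjusted p under 0.05 (3.42%) and 777 were lower (3.6%). Most of these differences were small, with a median log2 fold change of 0.29 among the higher and -0.39 among the lower genes, beside 0.01 over all genes tested. The SF3B2 and eGFP libraries did not overlap, in either direction, in 30.3% of all genes tested, so this trait alone is common. When the log2 fold change also had to exceed 1 in size, 66 genes (0.306%) passed as higher and 173 (0.802%) as lower. Of those 173, 110 belonged to a list of interferon response genes, of which 188 of 311 tested members were lower at an adjusted p under 0.05 and 0 higher. The other 63 lower genes, of which 38 had a symbol, and the 66 higher genes are described here. Without eGFP replicate 3 the counts were 120 higher and 101 lower outside the list. The higher count was 34 without eGFP replicate 2 and 28, 27 and 26 without SF3B2 replicates 1, 2 and 3, and the lower count was 40 without eGFP replicate 1 or 2. The 25 lower IDs without a symbol could not be matched to the list. The list need not hold every interferon response gene, so a lower gene outside it may still belong to that response.

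The higher genes past the threshold were almost all of low level. Only 3 had a mean of at least 1 log2 CPM over the 6 libraries, namely SF3B2, HSPA6 and the lncRNA ENSG00000280614, and the median eGFP level of the 66 was 0.0832 CPM. ENSG00000280614 was at 3.86, 5.38 and 6.86 CPM with SF3B2 and at 2.02, 2.12 and 2.97 CPM with eGFP. Its log2 fold change was 1.18 (adjusted p = 0.0321). In the scramble libraries it was at 1.24, 1.14 and 3.52 CPM. Against all 3 its log2 fold change was 1.45 (adjusted p = 0.374). This lncRNA was chosen after its values were seen, since the rule asked for a symbol. The lower genes outside the interferon list held 16 at that level, of which 5 had a symbol: PLEKHA4, THEMIS2, CFB, IL6 and ODF3B.

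**Figure D1:**
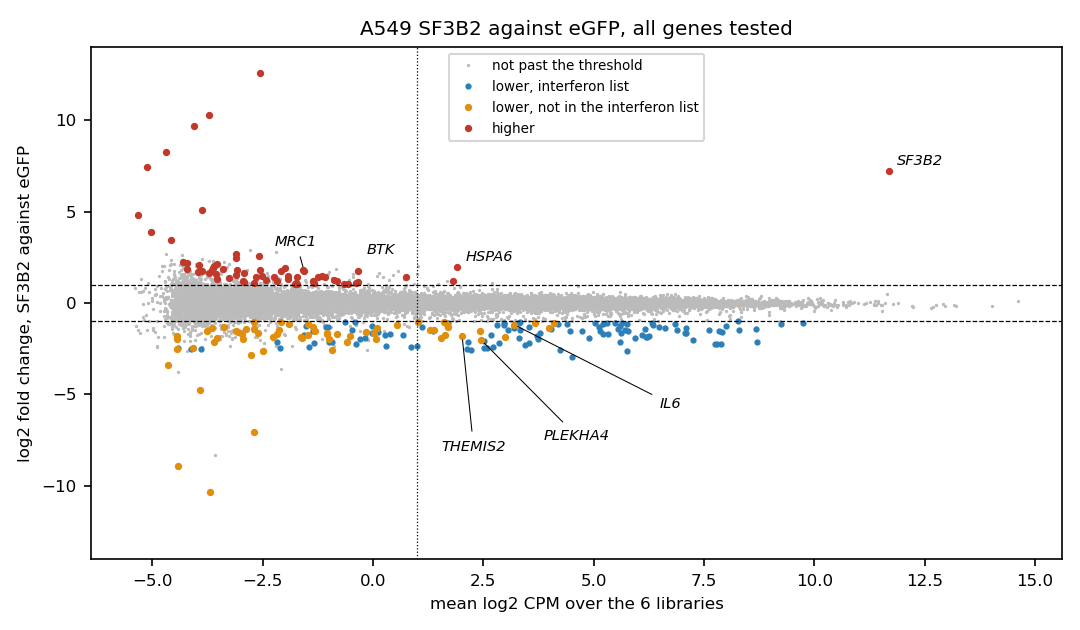
Log2 fold change of SF3B2 against eGFP in A549 (vertical axis) plotted against the mean log2 CPM over the 6 libraries (horizontal axis) for the 21581 genes tested, each point a gene. SF3B2 lies at 7.19 and HSPA6 at 1.98, and most of the 66 higher genes past the threshold lie at low mean levels.

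HSPA6 (ENSG00000173110, chr1:161524540-161526894, plus strand) was the only heat shock gene tested that was past the threshold. It was at 7.30, 7.10 and 7.61 CPM in the SF3B2 libraries, at 1.93, 1.87 and 1.80 CPM in the eGFP libraries and at 0.611, 0.562 and 1.75 CPM in the scramble libraries. Every SF3B2 library was above every control library, and among the scramble libraries replicate 3, the one with SF3B2 counts, was the highest and close to the eGFP level. The log2 fold change against eGFP was 1.98 (standard error 0.08, adjusted p = 6.99e-05), and it stayed between 1.88 and 1.999 in all 16 alternative fits. Against the 3 scramble libraries it was 2.91 (adjusted p = 0.0821), and without scramble replicate 3 it was 3.63 (standard error 0.10, adjusted p = 5.38e-05). Of the 31-base words in its transcripts, 57.1% also occur in another gene, most often the neighbouring copy HSPA7, whose counts were 0 to 2 in these libraries, so reads of the pair may have been assigned to either.

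The effect on HSPA6 differed between the lines. In HEK293T its log2 fold change against eGFP was -0.31 (adjusted p = 0.261), and the interaction of line and plasmid was 2.26 on the log2 scale (adjusted p = 0.00024), one of 1507 of 24714 genes (6.1%) with an adjusted p under 0.05 in that test. Without HEK293T eGFP replicate 3 the interaction was 2.29.

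The other HSP70 members moved less. HSPA1A, the stress-induced HSP70, was at 133, 136 and 138 CPM with SF3B2, at 93.3, 93.4 and 103 CPM with eGFP and at 88.6, 84.3 and 101 CPM with scramble. All 3 SF3B2 libraries were above all control libraries, with a log2 fold change of 0.49 against eGFP (standard error 0.05, adjusted p = 0.00181) and of 0.63 against scramble without replicate 3 (adjusted p = 0.00137). Its near-identical neighbour HSPA1B shares most of its sequence, with 76% of the words of HSPA1A found elsewhere, and had a count of 0 in every one of these libraries, so the value stands for the pair. HSPA2, a member known from the testis, was at 95.5, 95.9 and 99.6 CPM with SF3B2 and at 87.7, 82.0 and 85.4 CPM with eGFP. These groups did not overlap, with a log2 fold change of 0.19 (adjusted p = 0.0332), but the scramble libraries, at 92.0, 86.6 and 103 CPM, overlapped the SF3B2 libraries of HSPA2. HSPA8, the constitutive member, averaged 1807 ± 15.4 CPM (SD, n = 3) in the SF3B2 libraries against 1817 ± 136 CPM (SD, n = 3) in the eGFP libraries (log2 fold change -0.01, adjusted p = 0.966). Of the 12 HSP70 members tested of 14 listed, 3 were higher, 0 were lower and 9 did not pass, with a median log2 fold change of 0.08.

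Among the co-chaperones, DNAJB1, a J-domain partner of HSPA1A and HSPA8, was at 146, 149 and 146 CPM with SF3B2 and at 129, 128 and 122 CPM with eGFP, a log2 fold change of 0.22 (adjusted p = 0.0157). DNAJB2, a J-domain protein with ubiquitin-binding motifs, was at 29.7, 29.4 and 30.1 CPM against 24.9, 24.1 and 23.5 CPM, a log2 fold change of 0.30 (adjusted p = 0.00482). BAG3, the exchange factor that couples HSP70 to autophagy, was at 98.8, 98.0 and 97.8 CPM against 77.8, 79.9 and 89.6 CPM, a log2 fold change of 0.25 (adjusted p = 0.0432). In each of these genes the SF3B2 and eGFP libraries did not overlap, as in 30.3% of all genes tested, although eGFP replicate 3 came closest for BAG3. DNAJA1, another J-domain partner of HSP70, went the other way. It was at 552, 543 and 535 CPM with SF3B2 and at 648, 654 and 686 CPM with eGFP, a log2 fold change of -0.28 (adjusted p = 0.00982). All its SF3B2 libraries lay below all eGFP libraries, while scramble, at 611, 544 and 516 CPM, spanned the SF3B2 values. Against scramble without replicate 3, the log2 fold change was 0.27 for DNAJB1, 0.20 for DNAJB2, 0.17 for BAG3 and -0.10 for DNAJA1 (adjusted p = 0.00462, 0.0388, 0.0146 and 0.232). Of 14 co-chaperones tested, 3 were higher, 1 was lower and 10 did not pass.

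The sequences of 5 promoters are shown for the units that heat shock factors recognise: those of 4 higher genes, 3 with matches and DNAJB2 with none, and that of the gene that was lower. Each runs 5′ to 3′ on the gene's strand from 250 bases before to 50 bases after a transcription start (RefSeq, GRCh38.p14). Capitals mark matches to paired units in opposite orientation, GAANNTTC or TTCNNGAA, which read the same on both strands, or to 3 such units in a row, GAANNTTCNNGAA or TTCNNGAANNTTC, each of which is the other's reverse complement. A match to 3 units contains matches to paired units, and both are counted.
HSPA6, chr1:161524290-161524589, plus strand: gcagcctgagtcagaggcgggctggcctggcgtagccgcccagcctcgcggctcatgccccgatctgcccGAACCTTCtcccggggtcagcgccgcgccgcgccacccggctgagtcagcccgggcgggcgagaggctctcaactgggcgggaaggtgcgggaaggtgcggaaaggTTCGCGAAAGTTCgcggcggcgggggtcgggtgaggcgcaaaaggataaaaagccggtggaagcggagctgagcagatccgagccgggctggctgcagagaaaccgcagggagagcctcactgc
HSPA1A, chr6:31815293-31815592, plus strand: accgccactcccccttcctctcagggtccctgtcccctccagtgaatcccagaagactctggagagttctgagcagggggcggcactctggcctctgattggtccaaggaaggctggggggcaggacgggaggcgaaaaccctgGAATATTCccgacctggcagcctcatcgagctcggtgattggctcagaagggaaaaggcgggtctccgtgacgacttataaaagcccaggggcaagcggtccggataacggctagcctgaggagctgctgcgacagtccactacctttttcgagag
DNAJB1, chr19:14518348-14518647, minus strand: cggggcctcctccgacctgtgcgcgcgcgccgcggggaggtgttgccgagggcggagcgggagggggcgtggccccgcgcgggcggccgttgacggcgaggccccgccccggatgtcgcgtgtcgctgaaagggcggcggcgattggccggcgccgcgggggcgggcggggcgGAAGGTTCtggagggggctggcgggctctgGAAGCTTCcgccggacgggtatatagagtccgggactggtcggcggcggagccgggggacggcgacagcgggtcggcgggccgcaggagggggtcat
DNAJB2, chr2:219279116-219279415, plus strand: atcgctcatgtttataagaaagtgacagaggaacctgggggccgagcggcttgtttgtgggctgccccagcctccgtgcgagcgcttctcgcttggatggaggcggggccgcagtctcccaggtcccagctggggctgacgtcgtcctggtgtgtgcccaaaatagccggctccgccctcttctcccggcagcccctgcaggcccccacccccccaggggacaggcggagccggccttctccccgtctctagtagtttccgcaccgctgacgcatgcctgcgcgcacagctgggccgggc
DNAJA1, chr9:33025023-33025322, plus strand: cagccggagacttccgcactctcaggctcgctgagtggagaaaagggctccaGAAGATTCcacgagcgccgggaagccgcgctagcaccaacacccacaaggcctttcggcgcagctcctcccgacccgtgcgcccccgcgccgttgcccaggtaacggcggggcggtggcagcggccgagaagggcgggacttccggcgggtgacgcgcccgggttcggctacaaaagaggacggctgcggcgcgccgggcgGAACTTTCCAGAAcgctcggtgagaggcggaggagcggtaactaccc

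The HSPA6 window held 3 paired matches and 1 match to 3 units, the latter starting 74 bases before the transcription start. HSPA1A had 1 paired match, 106 bases before the start, and the DNAJB1 window shown had 2. The windows of DNAJB2, BAG3 and HSPA2 had 0 of either kind, so of the 6 higher heat shock genes 3 had a paired match and 1 a match to 3 units. DNAJA1, the gene that was lower, had 3 paired matches and 1 match to 3 units, the latter after the start. Of 35116 promoter windows in the RefSeq table, 13.5% held a paired match and 0.49% a match to 3 units. Counted by gene, over all windows of a gene, the shares were 16.2 and 0.608% of 27305 genes. Among the 48 heat shock genes tested that had a window, 23 had a paired match and 8 a match to 3 units. Of the 41 that did not pass the test, 19 and 6 did, among them HSPA8. These letters occurred in heat shock genes that passed and in ones that did not.

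The remaining chaperone classes showed no call. Of the HSP90 genes and partners, 10 of 11 listed were tested. Of the small heat shock proteins and chaperonins 15 of 19 were tested, and of the heat shock factor genes and partners 4 of 5. In these classes 0 passed at an adjusted p under 0.05, and 3, 4 and 0 had an unadjusted p under 0.05. The factor gene HSF1 and CHORDC1 of the HSP90 list could not be matched to an ID of the counts, so neither was tested. DESeq2 and edgeR's exactTest called more heat shock genes in total, 14 and 10. HSPB1, the small heat shock protein HSP27, had a log2 fold change close to that of HSPA1A, 0.49, but missed the threshold (adjusted p = 0.0963). It was at 122, 128 and 111 CPM with SF3B2 and at 77.4, 73.1 and 107 CPM with eGFP, so eGFP replicate 3 lay near the SF3B2 libraries. HSP90AA1, the inducible HSP90, had a log2 fold change of -0.03, HSPH1, an HSP110 exchange factor, 0.08, and HSPD1, the mitochondrial chaperonin, -0.21 (adjusted p = 0.699, 0.283 and 0.312). Over all 63 heat shock genes listed, 55 were tested, 6 were higher, 1 was lower and 48 did not pass, with a median log2 fold change of 0.04. Over all genes tested 3.42% were called higher and 3.6% lower. The share called higher rose with transcript GC content. Among genes of at least 1 log2 CPM, 16.6% were higher at a GC content of 58.1 to 74.2%. That range holds HSPA6, HSPA1A, DNAJB2 and BAG3, at 58.6, 59.3, 60.2 and 59.1%. DNAJB1 and HSPA2, at 51.3 and 54.9%, lay in ranges where 1.67 and 5.19% were higher. Without eGFP replicate 3, 15 heat shock genes were higher and 3 lower, and with any one SF3B2 library left out 3 were higher and 0 lower.

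The calls for HSPA6, HSPA1A and DNAJB2 passed in all 16 alternative fits, although DNAJB2 was at 0.17 with a correction for GC content (adjusted p = 0.0477). That for DNAJA1 missed the threshold when any SF3B2 library was left out (adjusted p up to 0.0645). BAG3 and HSPA2 missed it with that correction (adjusted p = 0.255 and 0.0986) and in 8 and 9 of the 16 fits in all, and DNAJB1 with the replicate number as a block, scaling by library size alone, or without eGFP replicate 2 or any SF3B2 library (adjusted p up to 0.0951).

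**Figure D2:**
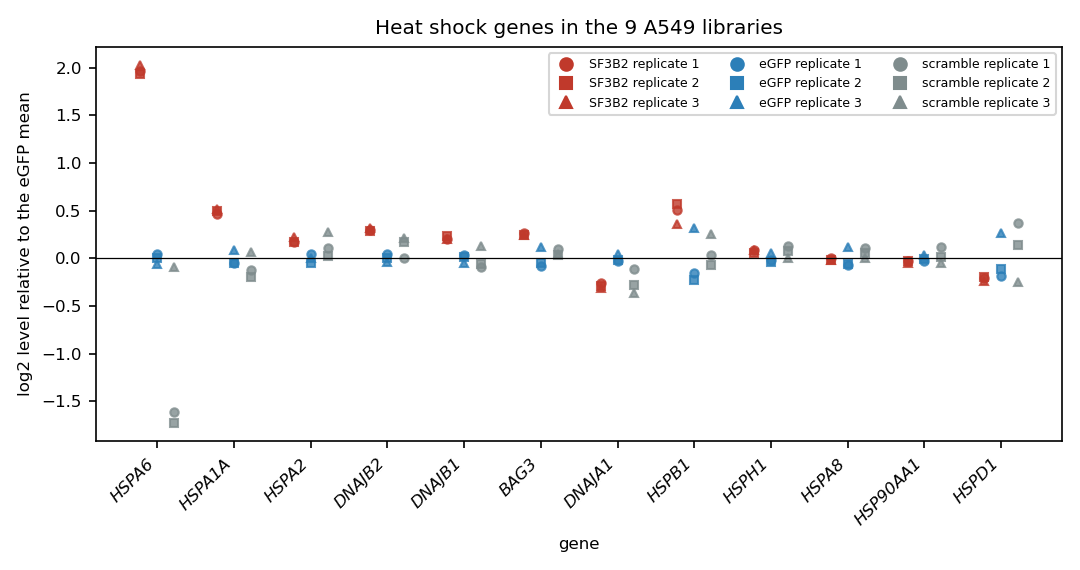
Log2 level of 12 heat shock genes in the 9 A549 libraries relative to the eGFP mean (vertical axis), with a colour for each plasmid and a marker shape for each replicate. HSPA6 stands apart at 7.10 to 7.61 CPM with SF3B2 against 1.80 to 1.93 CPM with eGFP, while HSPA8 and HSP90AA1 stay near 0 and DNAJA1 lies below 0.

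Other stress pathways were compared with the same counts, beside 3.42% called higher and 3.6% lower over all genes tested. A single call in a list of this size lies near these shares. The unfolded protein response of the endoplasmic reticulum had 0 of 26 genes higher and 4 lower: ERN1, the sensor IRE1, at -0.26, DNAJB9, a luminal J-domain protein, at -0.29, HSP90B1, the luminal HSP90, at -0.17 and SEL1L, of the degradation machinery, at -0.15 (log2 fold change). Of the 16 alternative fits, these calls were lost in 6 for ERN1, 8 for DNAJB9, 10 for HSP90B1 and 9 for SEL1L, single libraries left out included. Against scramble without replicate 3, ERN1 was at -0.08 (adjusted p = 0.207). DNAJB9, HSP90B1 and SEL1L were at -0.18, -0.15 and -0.265 there (adjusted p = 0.0112, 0.0413 and 0.00522). Of 33 ATF4 targets tested, 0 were higher and ALDH1L2, a mitochondrial folate enzyme, was lower at -0.30. With the GC correction 2 genes of the unfolded protein response and 4 ATF4 targets were lower. The proteasome and ubiquitin list had SQSTM1, the autophagy receptor p62, higher at 0.17 and the proteasome subunit PSMA3 lower at -0.23 among 34 tested, calls lost in 12 and 7 of the 16 fits. Against scramble without replicate 3, SQSTM1 was at 0.30 and PSMA3 at -0.05 (adjusted p = 0.00808 and 0.345). NRF2 targets, which run high in A549 because of a KEAP1 mutation, had 0 higher and the exporter ABCC2 lower at -0.19 among 26, a call lost in 8 fits. None of the other 30 U2 snRNP genes tested passed, with log2 fold changes between -0.22 and 0.16 and 6 at an unadjusted p under 0.05.

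The p53 targets included 8 higher genes and 0 lower among 25 tested, with a median log2 fold change of 0.18. Over all genes tested 3.42% were called higher and 3.6% lower. BTG2, an antiproliferative cofactor of mRNA deadenylation, was at 30.1, 29.1 and 29.7 CPM with SF3B2, at 20.9, 20.7 and 20.2 CPM with eGFP and at 21.1, 22.7 and 22.2 CPM with scramble. No SF3B2 library overlapped a control library, and the log2 fold change against eGFP was 0.52 (standard error 0.03, adjusted p = 0.000365). Against all 3 scramble libraries it was 0.43 (adjusted p = 0.0345). CDKN1A, the cell cycle inhibitor p21, was at 129, 128 and 126 CPM with SF3B2 and at 110, 105 and 101 CPM with eGFP. Its groups did not overlap (log2 fold change 0.28, adjusted p = 0.00992), and the scramble libraries were at 92.9, 101 and 120 CPM. PHLDA3, an AKT inhibitor, and TIGAR, a regulator of glycolysis, were higher by log2 fold changes of 0.52 and 0.33 (adjusted p = 0.00982 and 0.00902). MDM2, the ubiquitin ligase of p53, averaged 366 ± 12.7 CPM (SD, n = 3) in the SF3B2 libraries against 393 ± 19.7 CPM (SD, n = 3) in the eGFP libraries and did not pass (log2 fold change -0.10, adjusted p = 0.280). Over the alternatives 2 to 12 members of the list were higher, with 3, 2 and 3 when SF3B2 replicate 1, 2 or 3 was left out, and 12 without eGFP replicate 3. With the GC correction 6 were higher and 1 lower, and CDKN1A missed the threshold (adjusted p = 0.0675).

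Sterol genes divided, with 5 of 28 higher and 1 lower, beside 3.42% higher and 3.6% lower over all genes tested. SREBF1 and SREBF2, the transcription factors of the pathway, were higher by 0.23 and 0.18 on the log2 scale. STARD4, a cholesterol carrier, was at 58.5, 57.7 and 55.6 CPM with SF3B2 and at 93.8, 92.3 and 74.3 CPM with eGFP, a log2 fold change of -0.60 (adjusted p = 0.0107). Scramble, at 57.1, 57.6 and 57.0 CPM, lay at the SF3B2 level of STARD4, so the eGFP libraries stood apart from both. With the GC correction SREBF1 and SREBF2 were at 0.06 and 0.10 (adjusted p = 0.470 and 0.185), and the list had 1 higher and 1 lower gene.

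Immediate early genes, which respond within minutes to growth signals, had 2 of 31 higher and 3 lower. Over all genes tested 3.42% were higher and 3.6% lower, so a single call in any list of this paragraph lies near these shares. ARC, a cytoskeletal regulator best known in neurons, was at 1.06, 1.06 and 1.18 CPM with SF3B2 and at 0.486, 0.534 and 0.536 CPM with eGFP, a log2 fold change of 1.08 (adjusted p = 0.00251). The nuclear receptor NR4A2 was at 17.0, 18.0 and 17.2 CPM against 23.2, 24.0 and 22.5 CPM, a log2 fold change of -0.42 (adjusted p = 0.00229). For both genes the groups did not overlap. The zinc finger factor KLF6 was lower by the same amount, -0.42 (adjusted p = 0.0208), CCN2, a matricellular protein, was higher at 0.18, and the phosphatase DUSP1 was lower at -0.19. The calls for KLF6 and CCN2 were lost in 5 and 9 of the 16 fits. Against scramble without replicate 3, KLF6 was at -0.09 and CCN2 at -0.01 (adjusted p = 0.0772 and 0.922). ARC was at 1.17 and NR4A2 at -0.34 there (adjusted p = 0.00477 and 0.00623). With the GC correction 1 immediate early gene was higher and 7 were lower. Of 24 hypoxia and glycolysis genes, the glucose transporter SLC2A1 was higher at 0.18 and SLC2A3 lower at -0.22, calls lost in 12 and 6 of the 16 fits. Of 30 proliferation genes, the replicative helicase subunit MCM5 was higher at 0.25, a call lost in 11 fits. Of 30 genes of the epithelial-mesenchymal transition and matrix, COL4A2 (0.23) and MMP2 (0.33) were higher, and the collagen receptor ITGA2 (-0.42), the adhesion protein CDH1 (-0.26) and the repressor ZEB2 (-0.21) were lower. Calls were lost in 8 of the 16 fits for COL4A2 and ZEB2, 2 for ITGA2 and 3 for CDH1. Without scramble replicate 3, values against scramble were -0.14 for ITGA2, 0.07 for CDH1 and 0.13 for COL4A2 (adjusted p = 0.116, 0.207 and 0.14). ZEB2 was at -0.37 there (adjusted p = 0.00646).

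**Figure D3:**
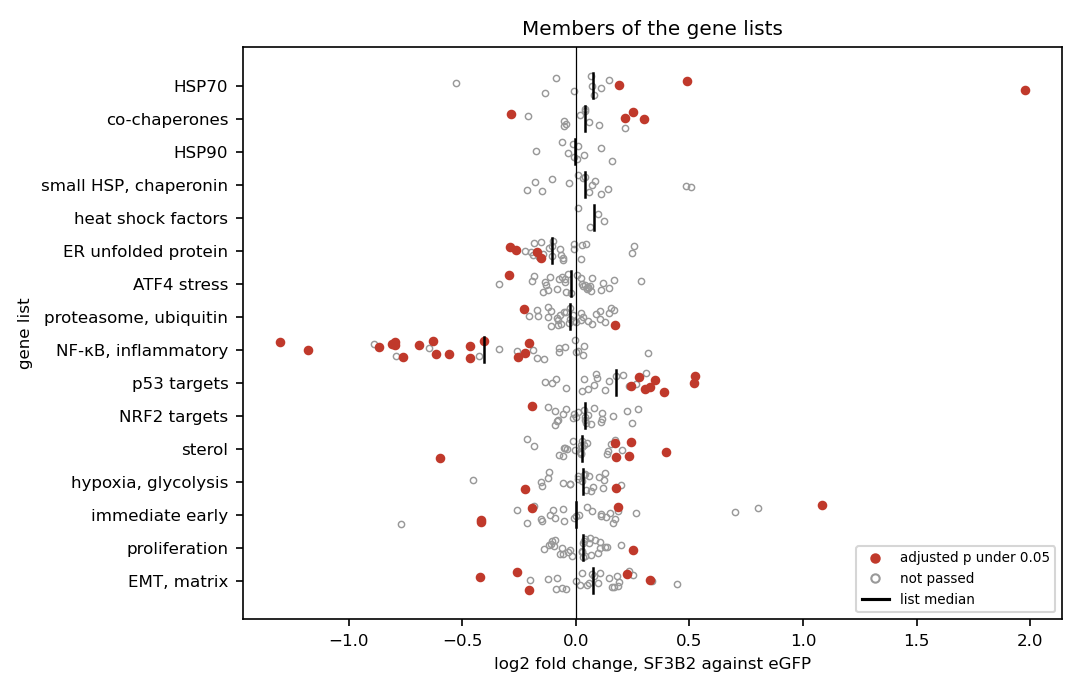
Log2 fold change of SF3B2 against eGFP (horizontal axis) for the tested members of each gene list (vertical axis), each point a gene. The NF-κB and inflammatory genes centre on -0.40 and the p53 targets on 0.18, whereas the heat shock genes centre near 0 with HSPA6 at 1.98.

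The lower genes outside the interferon list included inflammatory targets of NF-κB, the factor that cells release from its inhibitor NFKBIA in response to cytokines and microbial signals. Of 35 tested of 39 listed, 17 were lower and 0 higher, with a median log2 fold change of -0.40. Over all genes tested 3.6% were lower and 3.42% higher. IL6, the cytokine, was at 6.44, 5.84 and 5.85 CPM with SF3B2, at 14.5, 13.7 and 13.0 CPM with eGFP and at 12.04, 11.59 and 6.76 CPM with scramble. The SF3B2 libraries of IL6 lay below every control library, and scramble replicate 3, the one with SF3B2 counts, lay nearest to them. The log2 fold change was -1.18 against eGFP (standard error 0.07, adjusted p = 0.000242), -0.74 against the 3 scramble libraries (adjusted p = 0.366) and -0.98 without scramble replicate 3 (adjusted p = 0.00221).

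BIRC3, an inhibitor of cell death and a ubiquitin ligase of the pathway, was at 140, 135 and 133 CPM with SF3B2, at 214, 203 and 214 CPM with eGFP and at 202, 189 and 149 CPM with scramble. Again no SF3B2 library of BIRC3 reached a control library, and scramble replicate 3 was the lowest control (log2 fold change against eGFP -0.63, adjusted p = 0.000311). The neutrophil chemokines CXCL8, CXCL1, CXCL3, CXCL2 and CXCL5 were lower than eGFP by -0.87, -0.81, -0.79, -0.69 and -0.47 on the log2 scale. Against scramble without replicate 3, CXCL3 was at -0.31 (adjusted p = 0.0366). Scramble values of the other chemokines and of the genes named next are not given. SOD2, the mitochondrial superoxide dismutase, PTGS2, the cyclooxygenase COX-2, NFKBIZ, a nuclear cofactor, TNFAIP3, the inhibitor A20, and NFKBIA were lower by -0.76, -0.61, -0.56, -0.47 and -0.22. The subunits NFKB1, NFKB2 and RELA did not pass, at -0.07, 0.00 and 0.03 (adjusted p = 0.288, 0.987 and 0.816). The count of lower members was 11 to 19 over the alternatives, with 12, 11 and 13 when SF3B2 replicate 1, 2 or 3 was left out and 16 with the GC correction, and 0 were higher in any of them.

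The complement gene CFB differed from IL6 in its scramble level. It was at 2.06, 1.96 and 2.14 CPM with SF3B2, at 5.40, 4.61 and 5.21 CPM with eGFP and at 0.822, 0.929 and 1.21 CPM with scramble. The SF3B2 libraries thus lay between the 2 controls, with a log2 fold change of -1.30 against eGFP (adjusted p = 0.000573) and of 1.22 against scramble without replicate 3 (adjusted p = 0.00391). Of the words of CFB, 38.8% also occur in another gene.

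PLEKHA4, a phosphoinositide-binding adaptor, and THEMIS2, a signalling adaptor of immune cells, showed the same order of groups as CFB. PLEKHA4 was at 2.99, 2.67 and 2.45 CPM with SF3B2, at 12.1, 11.6 and 9.51 CPM with eGFP and at 1.79, 1.39 and 1.77 CPM with scramble. It fell with a log2 fold change of -2.03 against eGFP (standard error 0.12, adjusted p = 0.00026) and was at 0.75 against scramble without replicate 3 (adjusted p = 0.0174). THEMIS2 was at 2.08, 2.43 and 1.98 CPM with SF3B2, at 8.09, 8.19 and 6.35 CPM with eGFP and at 1.36, 1.33 and 1.36 CPM with scramble. Its log2 fold change was -1.80 against eGFP (adjusted p = 0.000628) and 0.68 against scramble without replicate 3 (adjusted p = 0.0142). In both genes every eGFP library stood above every other library of the 9. ODF3B was at 2.07, 2.43 and 1.91 CPM with SF3B2, 4.98, 4.57 and 3.54 CPM with eGFP and 1.30, 1.41 and 1.75 CPM with scramble, again with eGFP highest, and its log2 fold change was -1.03 (adjusted p = 0.0122). The call for ODF3B was lost without eGFP replicate 2, SF3B2 replicate 1 or SF3B2 replicate 3 (adjusted p up to 0.0662), and 11.2% of its words occur in another gene, most often TYMP. In HEK293T, PLEKHA4 and THEMIS2 had log2 fold changes of 0.08 and 0.19, and the interaction of line and plasmid was -2.14 and -2.02 (adjusted p = 0.000307 and 0.00111).

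Below the level limit or the fold limit, further lower genes were chosen after their values were seen. PDZD2, a PDZ-domain protein, was at 0.559, 0.547 and 0.585 CPM with SF3B2, at 1.67, 1.76 and 1.87 CPM with eGFP and at 0.463, 0.617 and 0.511 CPM with scramble (log2 fold change against eGFP -1.65, adjusted p = 0.00028). HDX, a homeobox gene on chromosome X, was at 8.12, 8.41 and 7.95 CPM with SF3B2, at 15.5, 16.1 and 16.4 CPM with eGFP and at 8.85, 8.12 and 8.08 CPM with scramble, a log2 fold change of -0.97 (adjusted p = 0.00015). For both PDZD2 and HDX the scramble libraries lay at the SF3B2 level, with log2 fold changes of 0.09 and -0.03 against the 3 scramble libraries (adjusted p = 0.795 and 0.824). HSH2D, LMO2 and RASGRP3, which act in lymphocyte or blood cell signalling or transcription, were lower than eGFP by -2.12, -1.60 and -0.997 but higher than scramble without replicate 3, by 1.68, 1.07 and 0.72 (adjusted p = 0.0199, 0.0272 and 0.00923). HCAR2, a receptor for niacin, was lower than eGFP by -1.88 but shares 50.6% of its words, most with HCAR3. It was at 0.200, 0.171 and 0.122 CPM with SF3B2 and at 0.148, 0.211 and 0.193 CPM with scramble. Without scramble replicate 3 its log2 fold change against scramble was -0.14 (adjusted p = 0.788). The butyrophilins BTN3A1 and BTN3A3, which present phosphoantigen signals to T cells, were lower than eGFP by -0.90 and -0.97. Against scramble without replicate 3 they were at 0.08 and 0.03 (adjusted p = 0.461 and 0.883). The call for BTN3A3 was lost in 5 of the 16 alternative fits. Of the words of BTN3A1 and BTN3A3, 14.9 and 22.3% also occur in another gene.

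**Figure D4:**
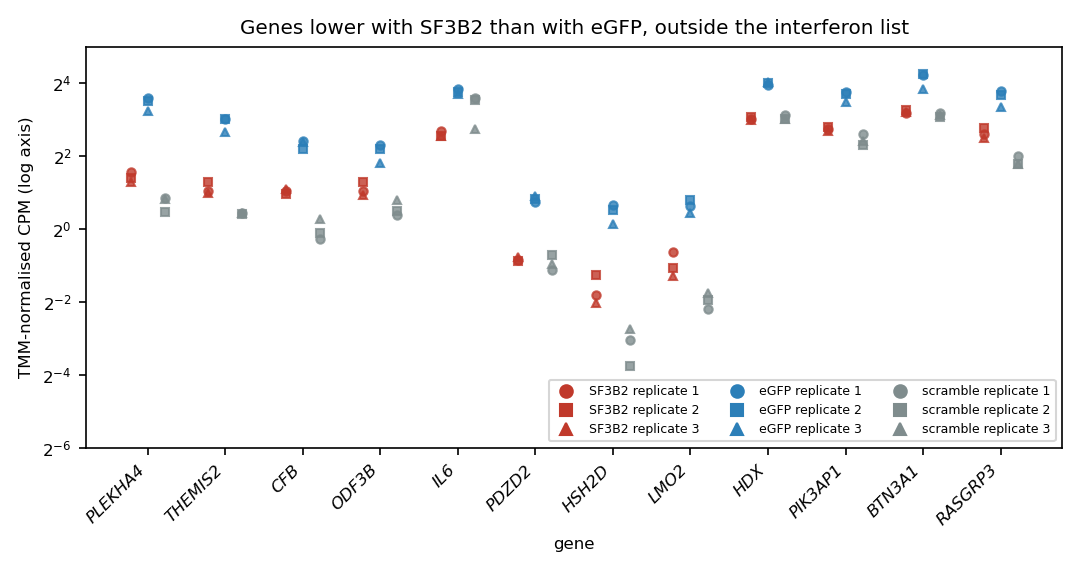
TMM-normalised CPM on a log axis (vertical) of genes that were lower with SF3B2 than with eGFP outside the interferon list, for each of the 9 A549 libraries, coloured by plasmid. In PLEKHA4 and THEMIS2 the eGFP libraries stand above both other groups, and in IL6 scramble replicate 3, at 6.76 CPM, lies near the SF3B2 libraries.

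The low-level higher genes were likewise chosen after their values were seen. MRC1, the macrophage mannose receptor, was at 0.624, 0.567 and 0.623 CPM with SF3B2, at 0.183, 0.186 and 0.160 CPM with eGFP and at 0.184, 0.203 and 0.206 CPM with scramble. BTK, a tyrosine kinase of B cells, was at 1.505, 1.38 and 1.44 CPM with SF3B2, at 0.434, 0.487 and 0.353 CPM with eGFP and at 0.445, 0.570 and 0.695 CPM with scramble. In both genes each SF3B2 library was above each control library, with log2 fold changes against eGFP of 1.77 for MRC1 and 1.76 for BTK (adjusted p = 0.000733 and 0.000841). Against the 3 scramble libraries they were 1.61 and 1.34 (adjusted p = 0.0195 and 0.0490). In HEK293T the log2 fold change against eGFP was 2.44 for BTK (adjusted p = 0.0217) and -0.05 for MRC1 (adjusted p = 0.872). CASS4, a scaffold of focal adhesions, was at 0.801, 0.822 and 0.866 CPM with SF3B2 and at 0.283, 0.332 and 0.408 CPM with eGFP (log2 fold change 1.28, adjusted p = 0.00586).

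The last group of IDs had no count at all in one of the groups. ENSG00000223654 had 644, 784 and 790 counts in the SF3B2 libraries and 0 in each eGFP library, at least 263-fold higher when 3 counts in each eGFP library are taken as the limit that a count of 0 allows. Its scramble counts were 0, 0 and 854, and 5 of the 8 groups of the series held both a library at 0 and one with at least 10 counts, so this ID also went from 0 to at least 10 counts between replicates of those groups. ENSG00000272760 had 0 counts with SF3B2 and 136, 204 and 155 with eGFP, at least 51.4-fold lower by the same limit in the SF3B2 libraries, with 95, 107 and 118 with scramble. ENSG00000226898 had 0 counts with SF3B2 and 46, 107 and 38 with eGFP, at least 19.6-fold lower, but among the A549 snaR-A libraries it also went from 0 to 20 and 33 counts. Such limits cover counting error only.

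The higher and lower genes also differed in the GC content of their transcripts. Among genes with a mean of at least 1 log2 CPM, median transcript GC was 60.3% for the 593 higher genes with a value, 43% for the 457 lower genes outside the interferon list and 48.8% for all. When the genes were divided into 5 equal bins from low to high GC content, the median log2 fold change went through -0.07, -0.04, -0.01, 0.05 and 0.15, and the share called higher from 0.544 to 16.6%. The difference between the bin of highest and that of lowest GC content, as a log2 deviation from the mean of the 9 libraries, was 0.115, 0.163 and 0.131 in the SF3B2 libraries. It was -0.0614, -0.113 and -0.0765 in the eGFP libraries and -0.173, -0.124 and 0.150 in the scramble libraries, so scramble replicate 3 lay with the SF3B2 libraries. The part of GC content in the calls was measured by fitting each library's GC trend as an offset, a choice made after the data were seen. With it, 228 genes were higher and 547 lower at an adjusted p under 0.05, and 51 and 54 of the higher and of the lower genes outside the interferon list were past the threshold. HSPA6 stayed at 1.88, HSPA1A at 0.38, BTG2 at 0.51, IL6 at -1.15 and PLEKHA4 at -2.20, each with an adjusted p under 0.05. SQSTM1, COL4A2, MCM5 and SLC2A1 no longer passed (adjusted p = 0.695, 0.154, 0.204 and 0.209), and the cause of the trend was not tested.

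**Figure D5:**
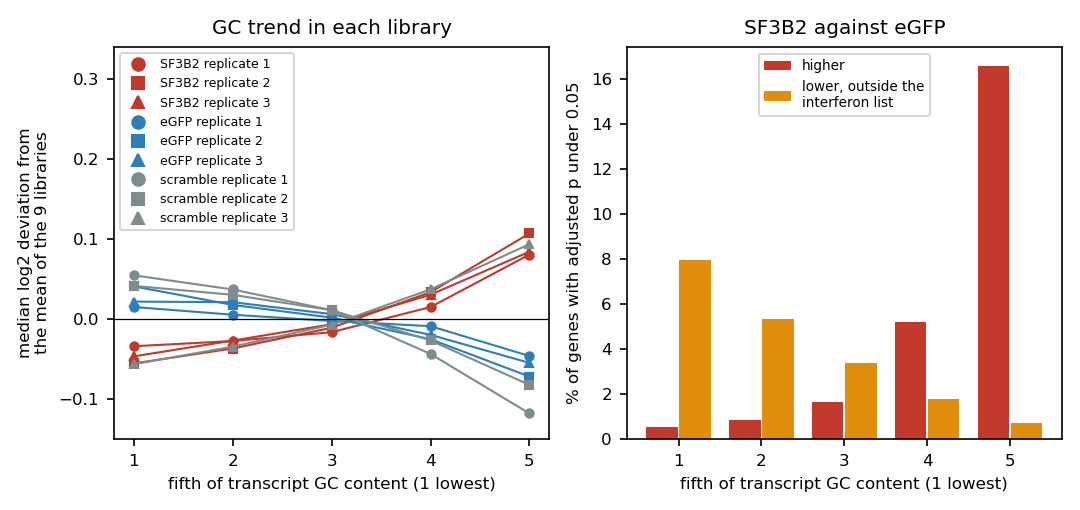
Left, the median log2 deviation of each A549 library from the mean of 9 libraries (vertical axis) in 5 equal bins of genes from low to high transcript GC content (horizontal axis). Right, bars from 0 show the percent of genes in each bin that were higher, or lower outside the interferon list, at an adjusted p under 0.05. The SF3B2 libraries and scramble replicate 3 rise with GC content and the share of higher genes reaches 16.6% in the bin of highest GC content.

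Scramble replicate 3 was not part of the eGFP comparison, but it carried SF3B2 counts and shared the GC trend of the SF3B2 libraries. The shares that follow are therefore not independent support for the calls, and how far either trait accounts for them was not tested. Of the 621 genes higher with SF3B2 than with eGFP at that level, SF3B2 left out, it was above both other scramble libraries in 570 (91.8%), with a median log2 difference of 0.26 from their mean. Of the 504 lower genes outside the interferon list, it was below both in 391 (77.6%), with a median of -0.16. Over all 12536 genes of that level, the shares were 42.8% above and 43.4% below. Against the 3 scramble libraries, 18 of 21461 genes tested (0.0839%) were past the threshold, 16 higher and 2 lower. Without scramble replicate 3, 315 of 21989 were, 225 higher and 90 lower, of which 0 of the lower were in the interferon list. Both comparisons share the SF3B2 libraries with the eGFP comparison.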

How the data were processed

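The authors trimmed the reads with Trim Galore, quantified them on transcripts with Salmon (genome build hg38) and deposited estimated counts for 60236 Ensembl genes, with no scaling between libraries. The transcriptome release and the tool that summed transcripts to genes are not given in the sources used here. Of the values, 51% were not whole, and all were rounded before testing, which set 0.034% to 0. A symbol was matched to 39568 IDs. The rest held 2.91% of all counts and kept their IDs. Positions are from GENCODE 44 on GRCh38.

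Analyses used R 4.3.3 and edgeR 4.0.16. The 6 libraries were filtered with filterByExpr, TMM-normalised and fitted for the quasi-likelihood F-test of edgeR, and p-values were adjusted by the Benjamini-Hochberg method. Past the threshold means an adjusted p under 0.05 and a fold change whose log2 exceeds 1 in size. Printed levels other than the marker sums are CPM on one TMM scale over 9 A549 libraries. Whether the effect differed between lines was tested as an interaction over 12 libraries. Two-sided exact permutation tests of single named genes all gave p = 0.1, the smallest that 3 libraries against 3 allow. Promoter windows are from RefSeq. GC content was the median over a gene's transcripts. The share of words is the share of 31-base words of a gene's transcripts found in another gene.

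Named were SF3B2, up to 10 genes in each direction with the largest change (outside the interferon list, past the threshold, not overlapping, named by a symbol and averaging 1 log2 CPM or more), each heat shock gene with an adjusted p under 0.05, and in each other list except interferon up to 4 members with the smallest p. Genes outside this rule were picked with their values in view. The members and lists were chosen with earlier results of these data known, so they are not independent evidence, and lists were described by counts, with no set test.

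The alternatives were exactTest, DESeq2 1.42.0, RLE scaling, library size alone, totals without SF3B2, no filter on low counts, a minimum of 10 counts in each library, all 12 A549 libraries, a replicate block, GC offsets and leaving out each library. Residuals of libraries with the same replicate number had correlations of 0.00869, 0.0174 and 0.0249, so libraries were not treated as pairs. No replicates were copies, since pairs differed by 18.7 to 146 times the Poisson variance. On simulated data for this comparison with 21335 genes, 200 of 200 changed genes were recovered by each test, with 0 to 2 false calls. The same step for the interaction of line and plasmid, with 24359 genes, recovered 200 of 200 changed genes with 9 false calls. Recovery was not split by gene level, so it is not given for genes of low level. Recovery of log2 fold changes under 1 in size was not tested. Another gene chosen by this rule is not reported here.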

Additional observations from a re-analysis of the deposited data

Results flagged for a closer look

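For 17 genes named by the rule the effect of SF3B2 against eGFP differed between A549 and HEK293T by the interaction term of line and plasmid, at an adjusted p under 0.05 in the quasi-likelihood F-test of edgeR, adjusted by the Benjamini-Hochberg method. Each value is the A549 minus the HEK293T log2 fold change, from 3 libraries per group. HSPA6 had 2.26, PLEKHA4 -2.14, THEMIS2 -2.02 and LIN28B, an RNA-binding protein used as a HEK293T marker, -0.43, and these 4 passed in all 14 alternative fits. DNAJB2 had 0.60 and SOX2 -0.56, each lost in 1 of 14. DNAJB9 had -0.60 and DNAJA1 -0.47, lost in 3 and 4 of 14. PSMA3 had -0.37, BTG2 0.37 and SLC2A3 -1.20, each lost in 6 of 14. STARD4 had -0.79, lost in 7 of 14. ARC had 1.26 and TIGAR 0.41, lost in 9 and 10 of 14. SEL1L had -0.36, HSP90B1 -0.42 and ITGA2 -0.71, each lost in 11 of 14. In HEK293T itself none of these 17 genes passed against eGFP, the smallest adjusted p being 0.104 for SLC2A3. Without HEK293T eGFP replicate 3, which carries A549 markers, the interaction was 2.29 for HSPA6, -2.08 for PLEKHA4 and -1.999 for THEMIS2. Of the genes chosen after their values were seen and named in the text, MRC1 (1.80), CASS4 (2.12), PDZD2 (-1.84), LMO2 (-1.49), HDX (-0.92), BTN3A1 (-1.08) and BTN3A3 (-1.06) also had an adjusted p under 0.05 for this term; their values under the alternatives are not given.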

How the results depend on the processing

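The 239 genes past the threshold against eGFP ranged from 192 to 321 over the alternatives that kept all libraries and from 164 to 340 when a library was left out. The 66 higher genes became 115 with exactTest and ranged from 26 to 120 when a library was left out, 120 of them without eGFP replicate 3, 34 without eGFP replicate 2, and 28, 27 and 26 without SF3B2 replicates 1, 2 and 3. The 63 lower genes outside the interferon list ranged from 40, without eGFP replicate 1 or 2, to 101, without eGFP replicate 3. The 7 heat shock calls became 14 with DESeq2 and ranged from 3, without any of the SF3B2 replicates, to 18, without eGFP replicate 3. The 18 genes past the threshold against scramble became 81 with exactTest, 68 with DESeq2, 30 with no low-count filter and 8 with all 12 libraries, and ranged from 0 (without scramble replicate 2 or SF3B2 replicate 1 or 2) to 315, without scramble replicate 3, with 8 without SF3B2 replicate 3. At an unadjusted p under 0.05, 2801 genes differed from scramble in the edgeR test. The 1507 genes with an interaction became 4051 with DESeq2 and lay between 423, with SF3B2 replicate 2 of HEK293T left out, and 4527, with replicate 3 of that group left out. The cause of these changes was not tested.

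With the replicate block, the number of higher genes was 42, of heat shock calls 4, of genes against scramble 0 and of interactions 418. Groups share replicate numbers in the labels, but these were not found to mark pairs, and not every library correlated best with its own number. Of 1295 values of 81 named genes over the alternatives, 1007 kept their direction and side of the threshold, 288 kept their direction but missed it, and 0 reversed. Those that missed it were most frequent without SF3B2 replicate 1, 2 or 3 (42, 46 and 41 genes), and 24 genes missed it with the GC offsets.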
